A study of Homo sapiens with 12 samples.

Results

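The loci of the 3 RUNX transcription factor genes RUNX1, RUNX2 and RUNX3, and of CBFB, which encodes the partner subunit of all of them, were described by the open chromatin called there in acute myeloid leukaemia (AML) cell lines. Each locus was the gene and the 20 kb before and after it, in RefSeq gene positions on hg38. These 4 genes were among 14411 protein-coding genes with at least 3 called peaks per library on average, and held 740 of 1199477 peaks. Merging peaks that overlapped between libraries gave 163 regions at the loci, of 334907 in all: 72 at RUNX1 (gene at chr21:34787801-35049302, minus strand), 51 at RUNX2 (chr6:45328330-45551082, plus strand), 28 at RUNX3 (chr1:24899511-24965138, minus strand) and 12 at CBFB (chr16:67029149-67101058, plus strand).

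RUNX proteins bind DNA through their Runt domain, and CBFB, which does not touch DNA itself, strengthens that binding. RUNX1 is required for definitive blood formation, RUNX2 for bone formation, and RUNX3 is best known from T cells and sensory neurons. RUNX1 and CBFB are both broken by recurrent rearrangements in AML, the core binding factor leukaemias. Each RUNX gene is read from a distal promoter, P1, and a proximal promoter inside the gene, P2, which give proteins with different first residues.

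The MLL1 gene (KMT2A) is rearranged in MOLM13 and MV4-11, and NPM1 is mutated in OCI-AML3. Control cells of each line, and cells held for 16 h with 500 nM VTP50469, a menin inhibitor that keeps menin from MLL1, were frozen alive before nuclei were tagmented with Tn5. There were 2 libraries in each of the 6 groups, and a line is a single cell line, so that a difference between lines cannot be told apart from a difference between their genotypes or culture media. No source says whether replicates came from separate cultures, and p-values here measure the spread between these libraries, which may be technical.

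The lists held 68670 to 145364 peaks per library, with the 4 MV4-11 libraries highest, so the number of peaks moved with the line, and an alternative in which every library entered with the same number of peaks was run. The share of peaks at a locus is given per 10000 peaks of the library. Absence of a call does not show that a region was closed, and fewer cells with an open site cannot be told apart from a less open site in every cell. Within 5 kb of the gene, 6 of 7 myeloid marker genes had a peak in every library, CD33 being the exception with a peak in 8 of 12. Peaks in every library were also found at 3 of 5 T cell, 3 of 5 B cell and 2 of 4 erythroid marker genes, while HBB and MS4A1 had a peak in 1 library each.

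The sequences before the start sites are shown first. P1 and P2 differed in their letters at RUNX2 and RUNX3, and at RUNX2 also in how often their windows were called. No sequence was available for RUNX1 P1. All 5 are from RefSeq (GRCh38.p14), 5′ to 3′ on the strand of the gene, and end just before the first base of the gene or of the P2 transcript. Capitals mark the core letters that RUNX proteins bind, TGTGGT or TGCGGT on either strand (ACCACA or ACCGCA when read on the other one).
RUNX2 P1 (chr6:45328080-45328329): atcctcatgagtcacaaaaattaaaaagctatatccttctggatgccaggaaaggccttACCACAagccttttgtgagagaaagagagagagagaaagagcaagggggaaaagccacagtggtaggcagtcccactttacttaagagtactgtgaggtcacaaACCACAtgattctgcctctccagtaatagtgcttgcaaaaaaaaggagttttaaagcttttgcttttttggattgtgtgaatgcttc
RUNX2 P2 (chr6:45422025-45422274): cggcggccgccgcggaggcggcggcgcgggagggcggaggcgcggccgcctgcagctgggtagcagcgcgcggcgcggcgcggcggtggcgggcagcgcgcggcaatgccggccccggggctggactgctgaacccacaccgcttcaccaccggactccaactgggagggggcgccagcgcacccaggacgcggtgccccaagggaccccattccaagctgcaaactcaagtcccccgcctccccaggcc
RUNX3 P1 (chr1:24965139-24965260): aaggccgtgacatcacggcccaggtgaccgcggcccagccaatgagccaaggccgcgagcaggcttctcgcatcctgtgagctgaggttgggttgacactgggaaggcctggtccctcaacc
RUNX3 P2 (chr1:24930277-24930526): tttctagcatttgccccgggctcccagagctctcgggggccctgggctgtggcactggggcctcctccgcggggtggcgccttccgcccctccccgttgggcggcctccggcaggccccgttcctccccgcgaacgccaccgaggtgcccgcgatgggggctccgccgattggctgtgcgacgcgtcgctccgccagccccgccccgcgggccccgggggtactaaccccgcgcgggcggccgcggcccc
RUNX1 P2 (chr21:34888700-34888949): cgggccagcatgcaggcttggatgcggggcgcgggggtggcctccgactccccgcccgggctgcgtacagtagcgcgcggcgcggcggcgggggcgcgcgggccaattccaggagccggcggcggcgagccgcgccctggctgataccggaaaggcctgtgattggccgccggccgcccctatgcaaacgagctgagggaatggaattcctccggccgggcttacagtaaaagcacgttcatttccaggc

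The RUNX core letters were present around the P1 starts of RUNX2 and RUNX3 and at none of the 3 P2 promoters. RUNX1 P1 and the CBFB start had no entry among the promoter sequences and were not searched. In the 300 bases from 250 before to 50 after the start site, RUNX2 P1 had 5 matches and RUNX3 P1 had 2. Of all 35116 promoter windows of that length, 19.6% held at least 1 match, 2.32% at least 2 and 0.0370% at least 4. The 2 matches of RUNX3 P1 and 2 of those of RUNX2 P1 stood side by side in short sites, shown here for their likeness and the RUNX3 site overlaps the end of the stretch printed above.
RUNX2 P1 site (chr6:45328343-45328370): acaACCACAgaACCACAagTGCGGTgca
RUNX3 P1 site (chr1:24965125-24965144): tcaACCACAgaACCACAagg

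The longest run of letters that the P1 windows of RUNX2 and RUNX3 shared was this pair of matches, an unbroken 18 bases (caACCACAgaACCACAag), and no promoter window of any other gene held it on either strand. No window of RUNX1 P1 was among those searched, so whether it holds this run is unknown. The site lay after the start in RUNX2. In RUNX3 it spanned the first base of the gene (chr1:24965138), where the printed stretch ends. It lay before the other listed P1 start (chr1:24965010), on which the RUNX3 P1 window was built. By base composition the P2 windows were alike, with 40 CpG dinucleotides in RUNX1, 39 in RUNX2 and 38 in RUNX3, against a median of 14 over all windows, whereas RUNX3 P1 had 15 and RUNX2 P1 had 2. A match is a description of letters, and binding was not measured.

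The first base of RUNX1 P1, RUNX1 P2 and RUNX3 P1 lay under a peak in 12 of 12 libraries, that of RUNX3 P2 in 10, that of CBFB in 9, that of RUNX2 P2 in 5 and that of RUNX2 P1 in 0. The CBFB start base was not covered in MOLM13 control replicate 2 or in either OCI-AML3 control, and was covered in both treated OCI-AML3 libraries. A peak covered part of the RUNX3 P1 window and of the RUNX3 P2 window in 12 of 12 libraries, and of the RUNX1 P2 window likewise in 12 of 12. The RUNX2 P2 window had a peak in 9 of 12 libraries and the RUNX2 P1 window in 2 of 12, MOLM13 control replicate 2 with a fold of 4.75 and OCI-AML3 control replicate 2 with a fold of 4.62. Fold here is the enrichment of reads at the summit of a peak over the local background of the same library, as the authors' peak caller gave it. Thus the P1 window with 5 RUNX core matches was called in the fewest libraries, and the P1 window with 2 of them was called in all.

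At the start sites no difference in strength between lines passed in limma, where the region was called in all libraries. The region at RUNX1 P1 (chr21:35049131-35049516) had folds of 6.36 to 10.2 and that at RUNX1 P2 (chr21:34888531-34890346) of 5.92 to 9.12. At RUNX3, the P1 region (chr1:24964904-24965807) had folds of 6.96 to 12.9 and the P2 region (chr1:24929417-24930829) of 5.13 to 10.3. The merged region at the start of CBFB (chr16:67028613-67029991) had folds of 8.04 to 14.6, and its part called in all OCI-AML3 libraries (chr16:67028681-67029071) ended short of the start base. The region at RUNX2 P2 (chr6:45421525-45422592), called in 10 libraries, was weaker, at 3.95 to 7.80, with its 2 highest folds, 6.95 and 7.80, in the OCI-AML3 controls.

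**Figure D1:**
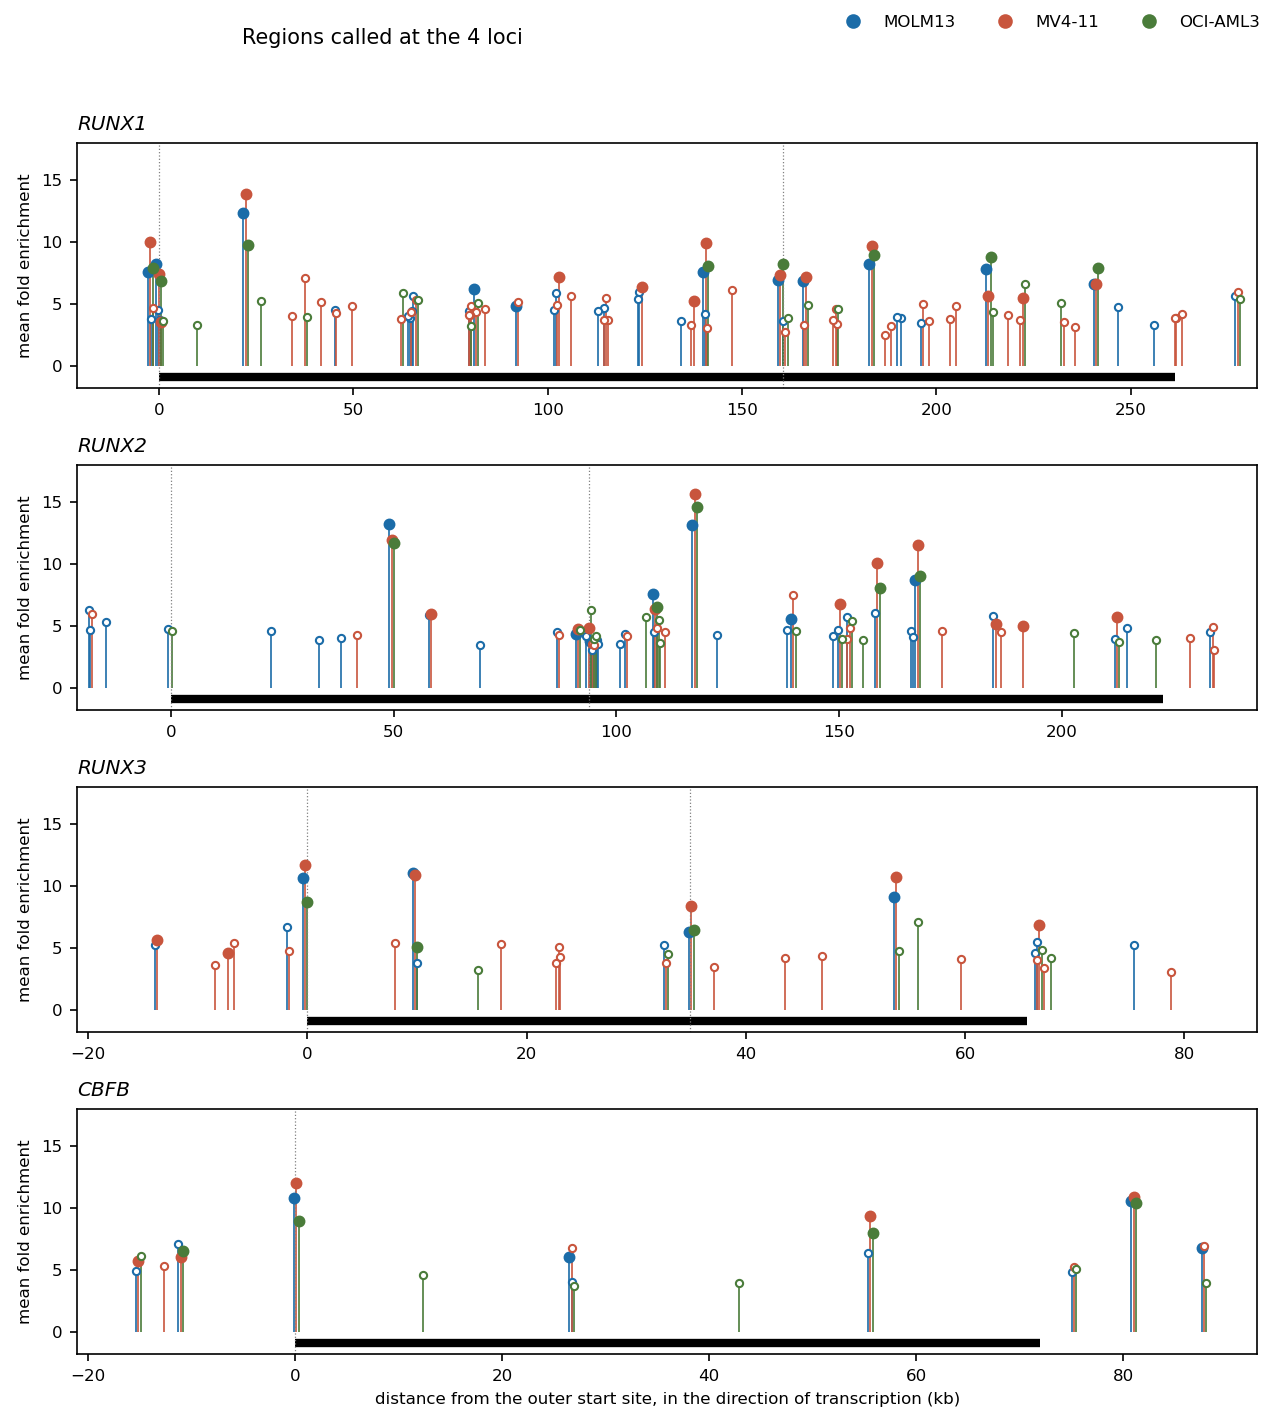
Mean fold enrichment of each called region in each line (vertical axis) against its distance in kb from the outer start site along the gene (horizontal axis), for the 4 loci. A filled point was called in each of the 4 libraries of that line and an open point in 1 to 3, the black bar is the gene and dotted lines mark the outer start and P2. The tallest regions of RUNX1 and RUNX2 lay inside the genes, 22.3 kb and 117.6 kb from the outer start, and those of RUNX3 and CBFB included the region at the start.

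Inside the genes, single regions stronger than the promoters stood out at RUNX1 and RUNX2. At RUNX1, the region of highest rank lay 22.3 kb downstream of P1 (chr21:35026600-35027424), between P1 and P2, and its folds were 12.1 and 13.2 in MOLM13 controls, 10.3 and 13.7 in treated MOLM13, 13.0 and 16.0 in MV4-11 controls, 13.0 and 13.5 in treated MV4-11, 10.2 and 9.86 in OCI-AML3 controls and 10.6 and 8.36 in treated OCI-AML3. An enhancer active in blood stem cells is known in this first intron of RUNX1, whose position was not compared here. Control and treated folds overlapped in every line. Of the 72 RUNX1 regions, 8 were called in all 12 libraries and 39 in a single library. The other 2 strongest were 183.4 kb downstream of P1 (chr21:34865416-34866361), past P2, with folds of 6.12 to 11.7, and 2.24 kb upstream of P1 (chr21:35051315-35051771), with folds of 6.17 to 12.3.

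At RUNX2, the strongest region lay 117.6 kb downstream of P1 (chr6:45445528-45446314), beyond P2, and its folds ran from 9.65 in MOLM13 control replicate 2 to 17.6 in OCI-AML3 control replicate 1. It ranked high in every library, at a percentile of fold of 86.5 to 99.9. The next, at chr6:45377257-45378570, with folds of 9.57 to 14.9, lay at the start of SUPT3H, which is read from the opposite strand inside the RUNX2 window, and peaks there cannot be assigned to RUNX2. The third, 167.6 kb downstream of P1 (chr6:45495467-45496332), had folds of 5.76 to 13.4. Of the 51 regions 4 were called in all libraries.

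At RUNX3, 3 of 28 regions were called in all libraries, at P1, at P2 and 9.81 kb downstream of P1 (chr1:24955034-24955622). At CBFB, 2 of 12 regions were called in all libraries: its own start, and the start of the neighbouring gene PHAF1 (chr16:67109377-67110912), with folds of 9.22 to 11.8. A further CBFB region 55.6 kb into the gene (chr16:67084466-67084953) was called in 11 libraries. Taking the 4 loci together, 17 of 163 regions (10.4%) were called in all 12 libraries and 78 (47.9%) in 1, beside 6.97% and 55.3% of all regions.

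Between the lines, the share of peaks at RUNX2 was higher in MOLM13 than in the others. In MOLM13 the RUNX2 share was 2.02 and 2.60 per 10000 peaks in controls and 2.09 and 2.33 in treated cells, that is 16, 24, 20 and 24 peaks. In MV4-11 it was 1.28 and 1.89 in controls and 1.21 and 1.51 in treated cells. In OCI-AML3 it was 1.14 and 1.38 in controls and 1.69 and 1.31 in treated cells. The MOLM13 libraries lay above all libraries of the other lines, and how many of all genes separate in this way was not counted. By limma over 14411 genes, with Benjamini-Hochberg adjustment, the share was 1.55-fold higher in MOLM13 than in MV4-11 (log2 difference 0.63, SE 0.16, adjusted p = 0.0228) and 1.61-fold higher than in OCI-AML3 (0.69, SE 0.16, adjusted p = 0.00578), whereas MV4-11 and OCI-AML3 differed by 0.06 (SE 0.16, adjusted p = 0.819).

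The whole of chromosome 6 moved with this result. It held 7.90% to 8.05% of the peaks in MOLM13, 6.11% to 6.21% of those of MV4-11 and 7.11% to 7.24% of those of OCI-AML3. Set against the peaks of chromosome 6 alone, the RUNX2 differences were 0.26 (SE 0.19, adjusted p = 0.448) from MV4-11 and 0.54 (SE 0.19, adjusted p = 0.0803) from OCI-AML3, and neither passed. When peaks under a −log10 q of 5 were left out, the difference between MOLM13 and OCI-AML3 was −0.07 (SE 0.15, adjusted p = 0.777). The difference from OCI-AML3 was thus not seen among the stronger peaks. This value does not bear on the difference from MV4-11. The call against MV4-11 was also lost without any 1 of MOLM13 control replicate 2, treated MOLM13 replicates 1 and 2, MV4-11 control replicate 1 and treated MV4-11 replicate 1 (adjusted p = 0.0579 to 0.158 in limma), and with the 65000 peaks of lowest p of each library (0.64, SE 0.16, adjusted p = 0.0574). The call against OCI-AML3 was kept without any 1 library and lost with covered bases in place of peaks (0.18, SE 0.10, adjusted p = 0.166). Without peaks under a −log10 q of 5, the RUNX2 share passed in limma as lower in MV4-11 than in OCI-AML3 (−0.51, SE 0.15, adjusted p = 0.0104). With covered bases it did so too (−0.32, SE 0.10, adjusted p = 0.0111), so that MV4-11 and OCI-AML3 were alike only by some measures.

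CBFB had a lower share in MV4-11 than in OCI-AML3. Its share was 1.04 and 0.908 per 10000 in MV4-11 controls and 0.692 and 0.482 in treated MV4-11, and 0.852, 1.06, 1.17 and 1.31 in OCI-AML3 controls and treated cells. The ranges overlapped, 0.482 to 1.04 against 0.852 to 1.31. The log2 difference was −0.54 (SE 0.20, limma adjusted p = 0.0482), beside a median of −0.10 over all genes. Leaving out 1 of 7 libraries in turn (MV4-11 control replicates 1 and 2, treated MV4-11 replicate 2 and each of OCI-AML3) ended the call, with values of −0.61 to −0.42, and with covered bases in place of peaks it was 0.06 (adjusted p = 0.712). With the 65000 peaks of lowest p taken from every library, so that all entered with the same number, it was −0.27 (adjusted p = 0.282).

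RUNX1 and RUNX3 passed between no pair of lines in the count of all peaks, but did under some alternatives. The RUNX1 share was 2.80 ± 0.226 per 10000 in MOLM13, 2.45 ± 0.401 for MV4-11 and 2.59 ± 0.231 for OCI-AML3 (SD, n = 4 each), and the 3 ranges overlapped. With the 65000 peaks of lowest p the RUNX1 share passed as higher in MOLM13 than in MV4-11 (0.43, SE 0.10, adjusted p = 0.0448) and lower in MV4-11 than in OCI-AML3 (−0.36, SE 0.10, adjusted p = 0.039). Without peaks under a −log10 q of 5 these RUNX1 differences were 0.66 (SE 0.13, adjusted p = 0.00439) and −0.68 (SE 0.13, adjusted p = 0.00075), and with covered bases the latter was −0.23 (SE 0.09, adjusted p = 0.0422). The RUNX3 share was 0.917 ± 0.202 for MOLM13, 1.08 ± 0.128 for MV4-11 and 0.775 ± 0.0556 for OCI-AML3 (SD, n = 4 each). The smallest RUNX3 p was that of MV4-11 against OCI-AML3 (0.41, SE 0.18, limma adjusted p = 0.108). The ranges were 0.957 to 1.21 and 0.728 to 0.852, and how many of all genes separate in this way was not counted. With covered bases this RUNX3 difference passed (0.43, SE 0.12, adjusted p = 0.00687), and without peaks under a −log10 q of 5 RUNX3 passed as higher in MOLM13 than in OCI-AML3 (0.60, SE 0.17, adjusted p = 0.0253).

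Read together, 1 of the 4 genes passed between MOLM13 and MV4-11, where 5.33% of all genes did, 1 between MOLM13 and OCI-AML3 (13.1%) and 1 between MV4-11 and OCI-AML3 (22.4%). These counts are near what such shares give for 4 genes and are no result about the RUNX genes as a group. With counts this low a single library was imprecise: the 22 peaks at RUNX1 in MOLM13 control replicate 1 are 2.77 per 10000 with an exact 95% binomial interval of 1.74 to 4.20, and the 5 peaks at RUNX3 in treated OCI-AML3 replicate 2 are 0.728 with 0.236 to 1.70. Such intervals cover counting error only.

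**Figure D2:**
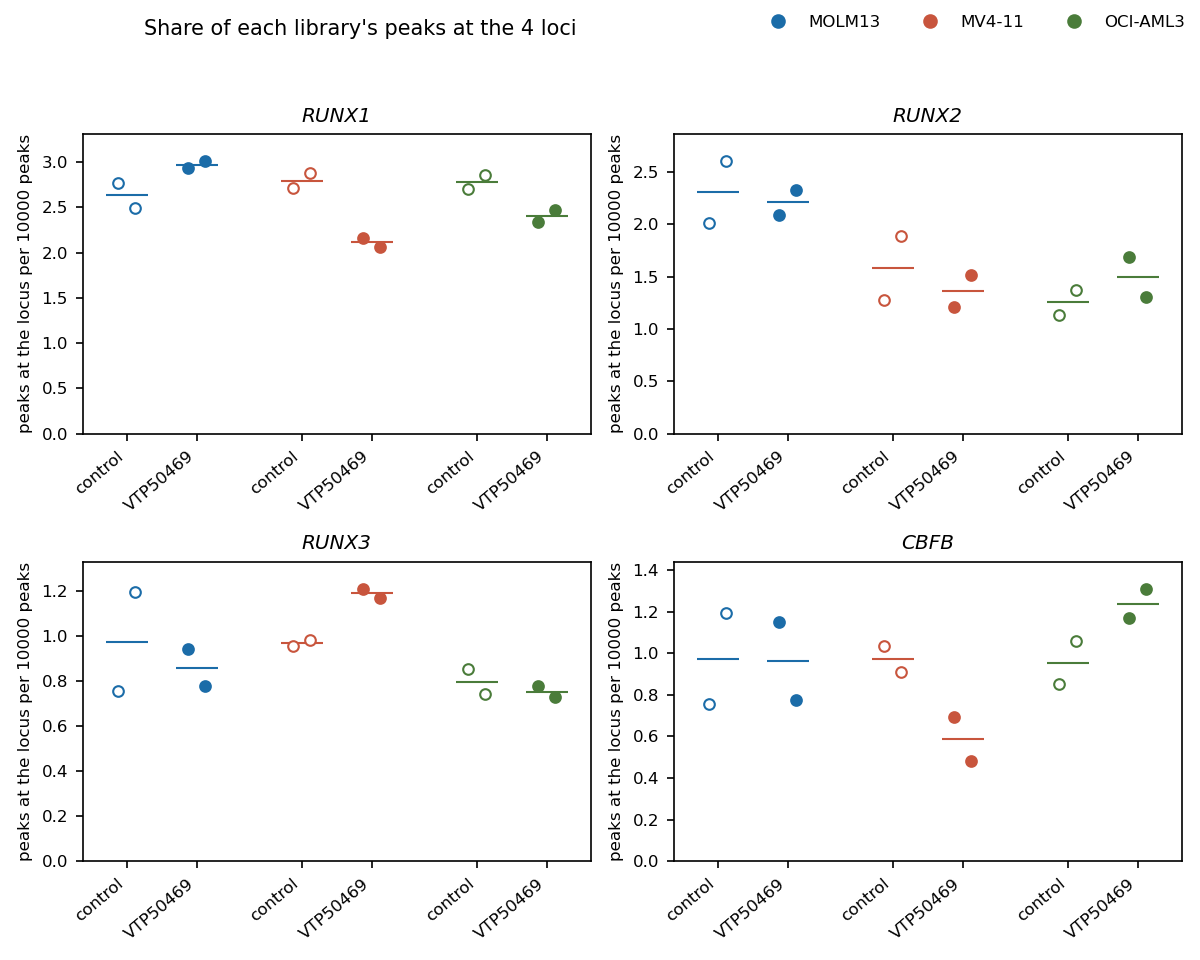
Peaks at each locus per 10000 peaks of the library (vertical axis), for control (open) and VTP50469-treated (filled) libraries of each line, with a bar at the mean of the 2 libraries. The MOLM13 libraries have the highest RUNX2 shares, at 2.02 to 2.60, and the MV4-11 treated libraries the lowest RUNX1 and CBFB shares.

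In strength, the clearest difference between lines was at RUNX3. The region 9.81 kb downstream of P1 had folds of 10.4 and 12.9 in MOLM13 controls, 9.92 and 11.2 in treated MOLM13, 11.2 and 13.2 in MV4-11 controls and 9.88 and 9.28 in treated MV4-11. In OCI-AML3 it had 4.45 and 5.70 in controls and 6.29 and 3.94 in treated cells, so that all 8 libraries of the MLL1-rearranged lines lay above all 4 of OCI-AML3. On ranks of fold turned into normal scores, the region was higher by 1.66 in MOLM13 (SE 0.32, limma adjusted p = 0.0121) and by 1.38 in MV4-11 (SE 0.32, limma adjusted p = 0.0178) than in OCI-AML3. A second RUNX3 region, 53.7 kb downstream of P1 (chr1:24910943-24911873), was called in all 8 libraries of MOLM13 and MV4-11, with folds of 7.27 to 13.3, and in 1 of 4 of OCI-AML3, with a fold of 4.75, and was not tested since it was not called everywhere. The P1 and P2 promoters of RUNX3 did not pass between lines.

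At RUNX1 the region at the start of the antisense gene RUNX1-AS1 (chr21:34835422-34836504), within the RUNX1 body, was weaker in MV4-11 than in OCI-AML3. With controls first, MV4-11 had folds of 5.75, 5.89, 5.92 and 5.20, whereas OCI-AML3 had folds of 11.1, 7.32, 8.12 and 8.62, with no overlap. The difference was −1.08 in normal scores (SE 0.24, limma adjusted p = 0.0162). MOLM13, at 5.36, 8.47, 8.52 and 8.94, was higher than MV4-11 by 0.74, which did not pass (SE 0.24, adjusted p = 0.124). The calls at these regions were fragile: without 1 of 4 libraries (MV4-11 control replicates 1 or 2, treated MV4-11 replicate 2 or OCI-AML3 control replicate 1) the adjusted p at RUNX1-AS1 was 0.0504 to 0.057, and without 1 of 3 (MV4-11 control replicate 2, treated MV4-11 replicate 2 or OCI-AML3 control replicate 1) that at RUNX3 between MV4-11 and OCI-AML3 was 0.0594 to 0.0657. No library ended the RUNX3 call between MOLM13 and OCI-AML3.

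Among the 17 locus regions called in all libraries, 0 passed between MOLM13 and MV4-11, where 3.37% of the 23338 regions tested did. Between MOLM13 and OCI-AML3 1 passed (7.06%), and 2 passed between MV4-11 and OCI-AML3 (11.6%). Below the threshold, the RUNX1 P2 region was lower in MV4-11 than in OCI-AML3 by 0.47 (SE 0.18, limma adjusted p = 0.114), as was the RUNX1 region 241.1 kb downstream of P1 (chr21:34807589-34808839) by 0.56 (SE 0.23, limma adjusted p = 0.131).

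Called in 1 line alone were 3 regions, all in MV4-11, the line with the most peaks. They lay 137.8 kb downstream of RUNX1 P1 (chr21:34911437-34911609, folds 4.78 to 5.63), 191.1 kb downstream of RUNX2 P1 (chr6:45519351-45519596, folds 4.20 to 6.84) and 7.23 kb upstream of RUNX3 P1 (chr1:24972225-24972518, folds 4.25 to 5.03), all weak. They are 3 of the 54 regions of the loci called in at least 4 libraries, where 6.93% of all such regions were MV4-11 alone. No region of the loci was called in all MOLM13 libraries and nowhere else or in all OCI-AML3 libraries and nowhere else. Of all regions called in at least 4 libraries, 0.427% and 0.843% were.

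A looser rule, chosen after the calls were seen, asked for 7 or more of the 8 libraries of the MLL1-rearranged lines and none of OCI-AML3. It held for 4 of 40 regions called in at least 7 libraries, beside 10.9% of all such regions. They were 124.2 kb and 102.8 kb downstream of RUNX1 P1 (chr21:34924845-34925380 and chr21:34946258-34946729), 58.4 kb downstream of RUNX2 P1 (chr6:45386607-45386821) and 13.7 kb upstream of RUNX3 P1 (chr1:24978565-24979181). In the other direction, 1 of 65 regions called in at least 3 libraries was in at least 3 of OCI-AML3 and in no other, beside 1.51% of all such regions. This region lay 55.5 kb downstream of RUNX3 P1 (chr1:24909550-24909804), with folds of 9.35, 7.03 and 4.78. It lay next to the RUNX3 region at 53.7 kb, which was called in 1 OCI-AML3 library.

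No share of peaks at the 4 genes passed the threshold between VTP50469-treated and control cells. The RUNX1 share was 2.77 and 2.50 per 10000 in MOLM13 controls and 2.93 and 3.01 in treated MOLM13, with no overlap. In MV4-11 it was 2.71 and 2.88 in controls and 2.16 and 2.06 in treated cells, again with no overlap, and in the opposite direction. In OCI-AML3 it was 2.70 and 2.86 in controls and 2.34 and 2.48 in treated cells. The limma differences were 0.17 (SE 0.17, adjusted p = 0.877) in MOLM13, −0.40 (SE 0.17, unadjusted p = 0.0279, limma adjusted p = 0.994) in MV4-11 and −0.20 (SE 0.17, adjusted p = 0.817) in OCI-AML3. With the 65000 peaks of lowest p of each library the RUNX1 difference in MV4-11 was 0 (SE 0.14).

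At CBFB the treated shares lay below the controls in MV4-11 and above them in OCI-AML3, and neither difference passed. In treated MV4-11 it held 8 and 7 peaks against 13 and 12 in controls, a log2 difference of −0.71 (SE 0.28, unadjusted p = 0.0172, limma adjusted p = 0.994). In treated OCI-AML3 its share was above both controls, a difference of 0.37 (SE 0.28, limma adjusted p = 0.785), and in MOLM13 the groups overlapped, with a difference of −0.02 (SE 0.28, limma adjusted p = 0.981). RUNX3 was at 0.957 and 0.984 in MV4-11 controls and at 1.21 and 1.17 in treated MV4-11, a difference of 0.28 (SE 0.26, limma adjusted p = 0.994). The RUNX2 differences were −0.06 (MOLM13), −0.19 (MV4-11) and 0.25 (OCI-AML3), with an SE of 0.23 each and with overlapping groups in every line.

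Over the 3 lines together the differences were −0.14 for RUNX1 (SE 0.10), −0.0019 for RUNX2 (SE 0.13), 0.02 for RUNX3 (SE 0.15) and −0.12 for CBFB (SE 0.16), and none passed (limma adjusted p = 0.880 to 0.999). Of all genes, 0.00694% passed in MOLM13, 0% in MV4-11 (350 genes had an unadjusted p under 0.05), 0.0208% in OCI-AML3 and 0.00694% over the lines. Control and treated libraries did not overlap at 1 of the 4 genes (MOLM13), 3 (MV4-11) and 2 (OCI-AML3), beside 37.2%, 35.2% and 32.2% of all genes, which is not a result about these genes. With 2 libraries against 2 an exact permutation test could give no p below 0.333.

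**Figure D3:**
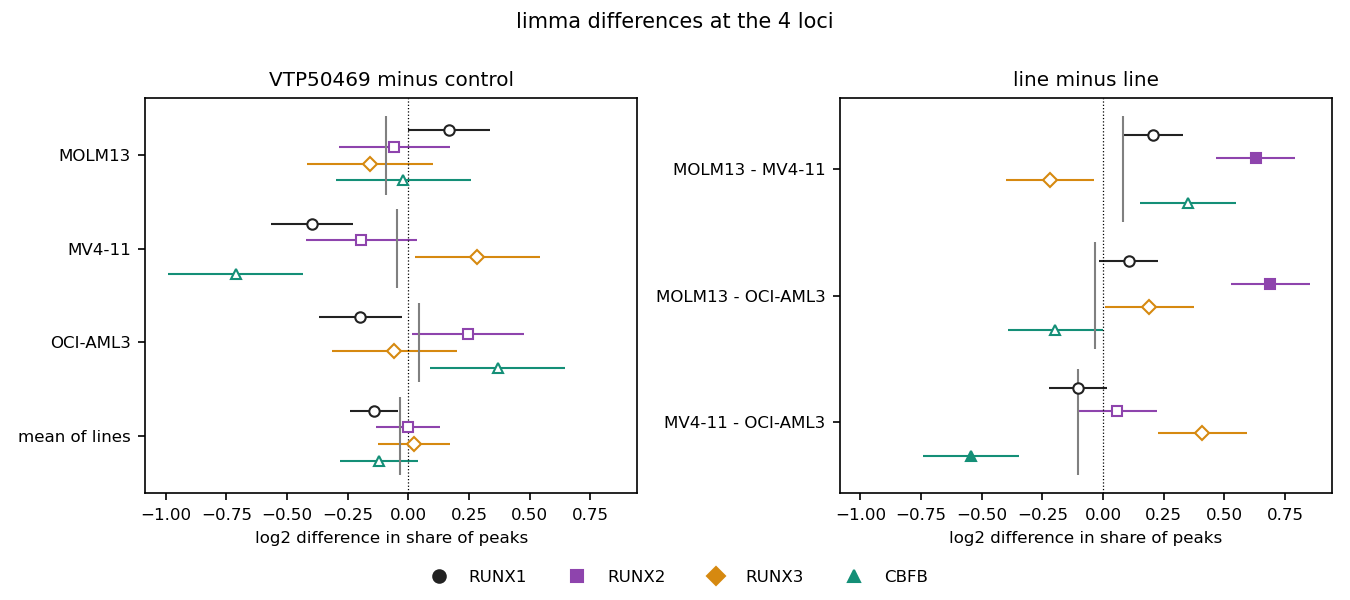
Log2 difference in the share of peaks from limma (horizontal axis, error bars are SE) for VTP50469 minus control, left, and between lines, right. Filled symbols passed at an adjusted p under 0.05 and grey lines mark the median of all 14411 genes. The treatment differences of the 4 genes are all open, and RUNX2 is filled in both comparisons with MOLM13.

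In strength, no region passed in any line. A RUNX2 region 108.6 kb downstream of P1 (chr6:45436717-45437212) had folds of 4.45 and 4.55 in MOLM13 controls and 8.73 and 12.8 in treated MOLM13, a difference of 1.85 (in normal scores, SE 0.34, unadjusted p = 0.000852, limma adjusted p = 0.855). The same region went from 8.15 and 6.53 to 6.08 and 4.73 in MV4-11 and from 5.66 and 6.02 to 5.74 and 8.79 in OCI-AML3. In MV4-11, RUNX2 regions 58.4 kb and 185.1 kb downstream of P1 had lower folds after treatment. The first had 6.01 and 10.1 against 4.20 and 3.68 (−1.52, SE 0.39, unadjusted p = 0.00506, limma adjusted p = 0.862). The second had 7.81 and 5.05 against the same treated folds (−1.11, SE 0.39, limma adjusted p = 0.862). These treated folds were low in their libraries, at percentiles of 16.3 and 13.0, and recurred at other regions of the loci.

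At CBFB, a region 11.0 kb upstream of the start (chr16:67017947-67018290) had higher folds after treatment in OCI-AML3 and MV4-11. In OCI-AML3 the folds were 4.40 and 3.94 in controls and 8.55 and 9.17 after VTP50469 (1.88, SE 0.35, unadjusted p = 0.000773, limma adjusted p = 0.918). In MV4-11 they were 5.61 and 4.43 in controls and 7.85 and 6.34 after VTP50469 (0.86, SE 0.35, unadjusted p = 0.0447, limma adjusted p = 0.862). In MOLM13 they were 7.55 in 1 control, with no call in the other, and 6.15 and 7.63 in treated cells. The region was named for its unadjusted p under 0.05 in OCI-AML3 and MV4-11, so the separation of groups there goes with that choice. In MOLM13 the treated folds were on both sides of the control. A CBFB region 26.7 kb into the gene had folds of 7.67 and 6.74 in MOLM13 controls and 4.54 and 5.28 in treated MOLM13 (−0.84, SE 0.33, limma adjusted p = 0.855). At RUNX1 the region 140.7 kb downstream of P1 had folds of 9.55 and 10.4 in OCI-AML3 controls and 6.75 and 5.62 in treated OCI-AML3 (−0.82, SE 0.35, limma adjusted p = 0.918).

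Of the regions of the 4 loci that every library of a line held, 0 of 27 (MOLM13), 0 of 38 (MV4-11) and 0 of 22 (OCI-AML3) passed in limma, as did 0% of the 41518, 70124 and 30982 regions tested, and 2, 3 and 2 had an unadjusted p under 0.05, beside 5.78%, 5.70% and 5.04% of all regions. The promoters of the 4 genes were not among them. In simulated data, these within-line fits recovered 6, 1 and 1 of 100 shifts of 1 normal score in MOLM13, MV4-11 and OCI-AML3. Of 100 shifts of 2 they recovered 72, 65 and 54, so that smaller shifts would mostly be missed. In the fit over the 12 libraries 0 of 17 passed for treatment (0% of all). The RUNX2 region at 108.6 kb had the lowest p of the 17 (0.57, SE 0.18, limma adjusted p = 0.839).

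**Figure D4:**
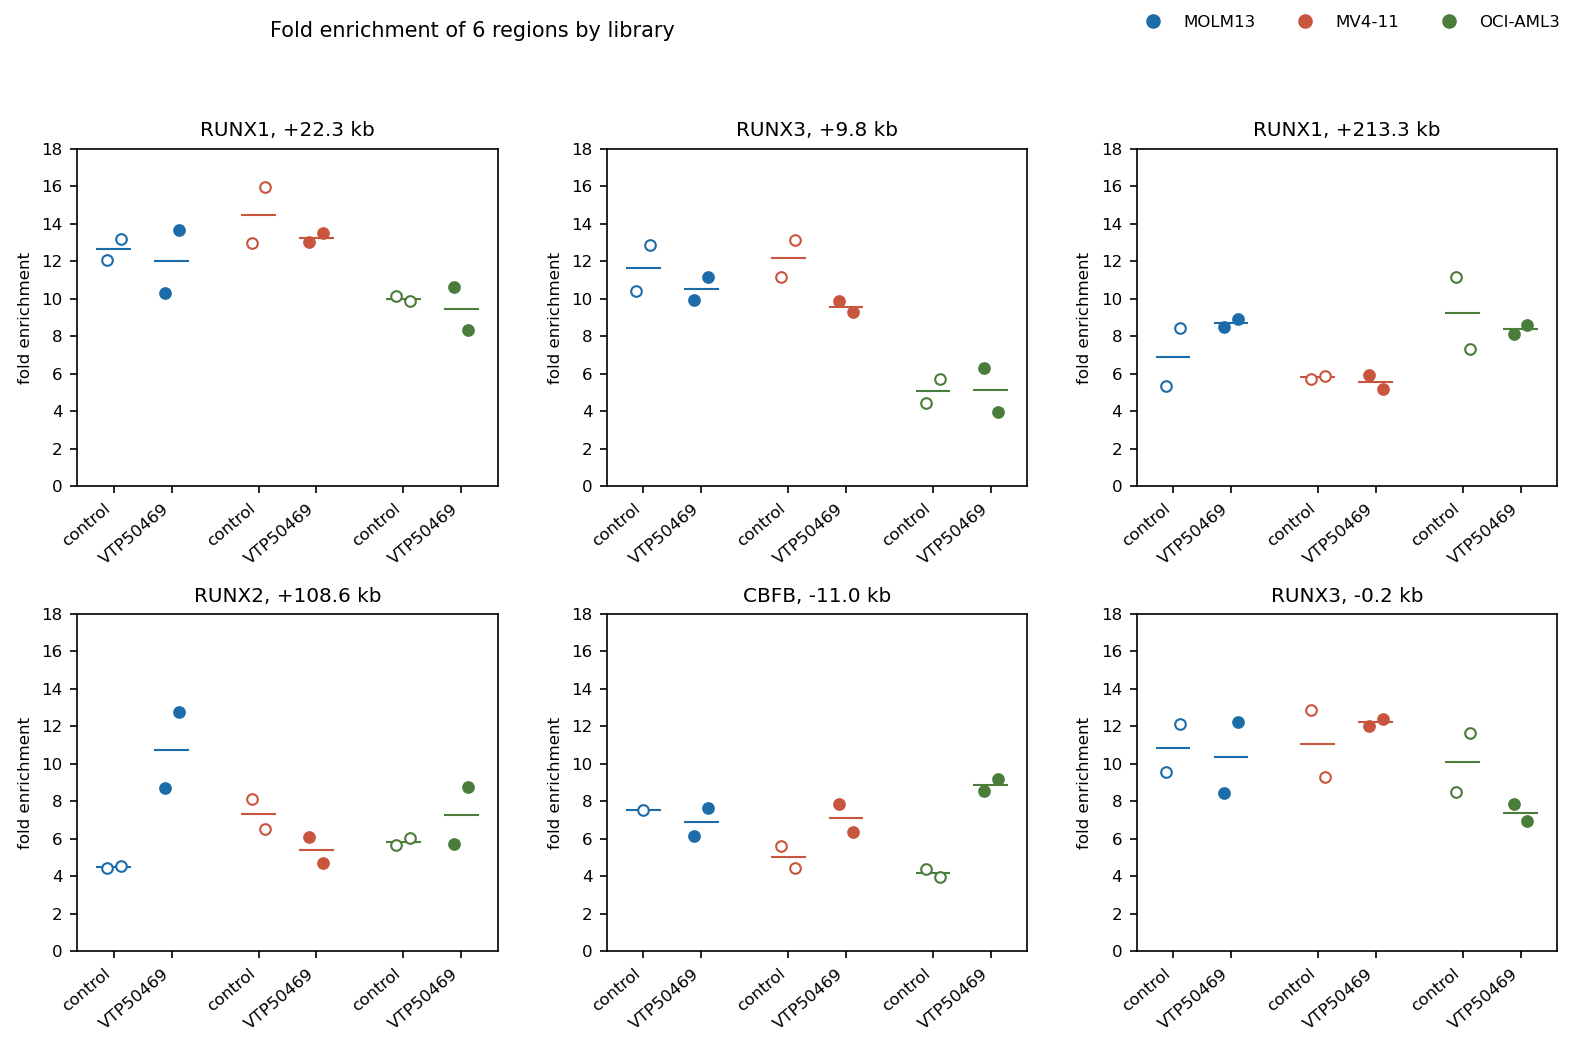
Fold enrichment (vertical axis) of 6 regions in control (open) and VTP50469-treated (filled) libraries of each line, with a bar at the group mean. Titles give the gene and the distance from its outer start, and MOLM13 control replicate 1, in which the CBFB region was not called, has no point there. The RUNX3 region at +9.8 kb is lower in all OCI-AML3 libraries, and the CBFB region at −11.0 kb is higher in the treated libraries of MV4-11 and OCI-AML3. The CBFB region was chosen for the lowest p of its locus in the fits within a line.

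Regions called in both controls of a line and neither treated library (lost), or the reverse (gained), were few at the 4 loci. In MOLM13, 1 region was lost, 32.7 kb downstream of RUNX3 P1 (folds 4.51 and 5.99), and 2 were gained, 124.3 kb and 80.3 kb downstream of RUNX1 P1, of 10 regions called in exactly 2 libraries, beside 10.7% lost and 26.4% gained of all such regions. In MV4-11, 7 were lost and 3 gained of 21, beside 21.8% and 15.2%. The lost regions were 2 at RUNX1, 2 at RUNX2, 1 at RUNX3 and 2 at CBFB. The RUNX3 region, 17.6 kb downstream of P1 (chr1:24947365-24947649), had folds of 3.43 and 7.22, the lowest and the highest of the lost regions of MV4-11. The CBFB pair lay outside the gene, 12.7 kb upstream of the start (folds 4.91 to 5.69) and 75.1 kb downstream of it (folds 5.06 to 6.09). The RUNX1 pair lay 66.0 kb downstream and 1.40 kb upstream of P1, and the RUNX2 pair 87.2 kb and 102.4 kb downstream of P1. The gained regions were at the RUNX1-AS1 start and 7.96 kb downstream and 6.69 kb upstream of RUNX3 P1.

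In OCI-AML3, 0 were lost and 3 gained of 10, beside 23.7% and 12.2%. Of the gained, 1 covered the CBFB start base (chr16:67029140-67029334, folds 4.63 to 6.21), 1 lay just downstream of it (chr16:67029589-67029801, folds 4.04 to 4.20) and 1 was downstream of RUNX3 (folds 4.44 to 5.28). Lost and gained regions were merged within a line, and 5 of the 16 lay in a region merged over all lines that the other group of the same line had called in part: both at CBFB in OCI-AML3, those at 124.3 kb of RUNX1 in MOLM13 and at the RUNX1-AS1 start in MV4-11, and the CBFB region at 75.1 kb in MV4-11. In all 16 lost and gained regions the highest fold was 7.22. No region of the 4 loci was tested for loss or gain.

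Genes that RUNX factors work with or regulate were counted in the same way. For treatment, 0 of 14 cofactors, 0 of 10 partner factors of RUNX1, 0 of 10 myeloid targets, 0 of 6 lymphoid targets and 0 of 5 measured bone targets (of 7) passed in any line or over the lines. Over the lines the cofactor with the highest value was RUNX1T1, the corepressor known from its fusion to RUNX1 in AML (0.91, SE 0.21, limma adjusted p = 0.353), and that with the lowest NCOR1, a nuclear corepressor (−0.45, SE 0.19, limma adjusted p = 0.770). Among the partners TAL1, a blood stem cell factor, was at −0.49 (SE 0.25, limma adjusted p = 0.819), and among the myeloid targets CEBPE, a granulocyte factor, was at −0.59 (SE 0.23, limma adjusted p = 0.742). No gene of higher value is named for these lists. The list medians over the lines were −0.066 (cofactors), −0.036 (partners), −0.020 (myeloid), −0.195 (lymphoid) and −0.101 (bone), beside −0.036 over all genes.

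Between lines the lists held 4 of 14 cofactors, 1 of 10 partners and 2 of 10 myeloid targets that passed from MV4-11 to OCI-AML3, beside 22.4% of all genes, and the shares from MOLM13 to OCI-AML3 and to MV4-11 are to be read beside 13.1% and 5.33%. From MV4-11 to OCI-AML3, the cofactors held 1 gene higher in MV4-11, the corepressor TLE1 (2.11, SE 0.27, limma adjusted p = 1.11e-05), and 3 lower, RUNX1T1, HDAC1 and CDK6, with RUNX1T1 at −1.10 (SE 0.26, limma adjusted p = 0.00403). Of the partners 1 was lower, the LIM-domain bridging factor LMO2 (−0.81, SE 0.18, limma adjusted p = 0.00251), and of the myeloid targets 2 were higher, the kinase gene PRKCB (1.76, SE 0.18, limma adjusted p = 4.94e-07) and the receptor gene CSF1R (0.57, SE 0.17, limma adjusted p = 0.0219). The list medians were −0.25, −0.13 and 0.20, beside −0.10 over all genes. From MOLM13 to OCI-AML3, 1 cofactor was higher and 2 lower, 1 partner higher (MYB, 0.73, SE 0.18, limma adjusted p = 0.00818) and 1 lower (LMO2), and 1 myeloid target was higher, PRKCB (1.69, SE 0.18, limma adjusted p = 5.46e-07). From MOLM13 to MV4-11, 1 cofactor (TLE1, −1.04) and 1 partner, the ETS factor gene ERG (−0.70, SE 0.18, limma adjusted p = 0.021), were lower in MOLM13. Lymphoid targets passed in no pair. Of the 5 measured bone targets, 1 was higher in MOLM13 than in MV4-11, COL10A1 on chromosome 6, beside 5.33% of all genes that passed. Between MV4-11 and OCI-AML3, 1 was higher and 2 lower of the 5, beside 22.4%.

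By the share of peaks over the 12 libraries, as log2 values, the genes most like RUNX1 were MRTO4 (Pearson r = 0.884), LOC124903570 (0.865) and EMC1 (0.835). Those most like RUNX2 were HSF2 on chromosome 6 (0.895), LOC124902528 (0.894) and FZD8 (0.894). LOC124902528 and FZD8 are both on chromosome 10 and had the same r and mean number of peaks (3), so they may count the same peaks. Among those most like RUNX3 were BTBD2 (0.867) and RPE (0.865), and those most like CBFB were PERCC1 on chromosome 16 (0.922), P2RX7 (0.888) and SLFN12 (0.883). These are among the highest values over all genes, from libraries that share lines and depth, and several of these loci held 3 to 5 peaks per library. Among the 4 genes themselves the values ran from −0.572, between RUNX1 and RUNX3, to 0.415, between RUNX1 and CBFB.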

How the data were processed

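ATAC-seq libraries of MOLM13, MV4-11 and OCI-AML3 cells, 2 per group, were analysed as the peak lists that the authors deposited, 1 per library, called without pooling. The submitters' processing notes list MACS2 2.1.0 along with Bowtie 1.1.2, Trimmomatic 0.33, deepTools and bcl2fastq 2.17, whereas the study's methods name TopHat2 for the alignment to hg38, so the aligner is uncertain. The deposited columns hold a score (10 × −log10 q without its decimals), the fold enrichment at the summit as a ratio to the local background, the −log10 p and −log10 q of the summit, and the summit offset in bp. Read depth is unknown, and no coverage was used. Whether reads were shifted for the Tn5 cut is not given in the sources used here.

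Of 1200433 peaks, 956 outside chromosomes 1 to 22 and X were not used. Peaks sharing at least 1 bp were merged into regions. For each protein-coding gene, peaks within 20 kb of the gene body were counted, and log2 of (peaks + 0.5) per 10000 peaks of the library was fitted with limma 3.58.1 (R 4.3.3) over genes with a mean of at least 3 peaks, all 6 groups sharing 1 estimate of the spread. Region strength was the rank of the fold within the library as a normal score, fitted with limma over regions called in all 4 libraries of a line or in all 12. P-values were adjusted by Benjamini-Hochberg over all features, with a threshold of 0.05. Lost, gained and line-only regions were counted without a test. Tables were handled with Python 3.11.15, pandas 2.3.3, numpy 2.4.6 and scipy 1.17.1, and the scripts were tested on simulated data.

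The 4 genes and the lists were chosen with earlier results of these data known. Regions named were those at gene starts, those among the 3 strongest of a locus called in all libraries, those of 1 line, lost or gained regions, and those with an unadjusted p under 0.05 (at most 5). Of the cofactors, the genes with the highest and lowest mean shift were named, and of the partners and myeloid targets only a gene of lower value. Some genes that passed between lines were also named, after their values were seen. A gene named by these rules and a marker gene are not reported here. Replicate numbers did not pair the libraries. Alternatives were a −log10 q of at least 5, 5 kb flanks, the same chromosome as denominator, a pseudocount of 2, covered bases, no filter, log2 fold, summit windows of 100 bp on either side, a replicate block, leaving out each library and, chosen after seeing the data, the 65000 peaks of lowest p.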

Additional observations from a re-analysis of the deposited data

Results flagged for a closer look

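The VTP50469 shift in the share of peaks at RUNX1 had opposite directions in MOLM13, where both treated libraries lay above both controls, and in MV4-11 and OCI-AML3, where both lay below. The shift in MOLM13 minus that in MV4-11 was 0.5639 on the log2 scale (SE 0.24, unadjusted p = 0.0271, limma adjusted p = 0.998). The shift in MOLM13 minus that in OCI-AML3 was 0.3657 (SE 0.24, unadjusted p = 0.14, limma adjusted p = 0.727). At CBFB both treated libraries lay below both controls in MV4-11 and above them in OCI-AML3, and the shift in MV4-11 minus that in OCI-AML3 was −1.08 (SE 0.394, unadjusted p = 0.0113, limma adjusted p = 0.909). None of the differences passed after adjustment. The RUNX1 directions depended on the processing: at a −log10 q of at least 5 the shift in MOLM13 was −0.1247, and with the 65000 peaks of lowest p of each library that in MV4-11 was 0.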

How the results depend on the processing

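No call of treatment at RUNX1, RUNX2, RUNX3 or CBFB was made under any alternative. The number of genes passing for treatment in MOLM13, 1 with all peaks, was 0 at a −log10 q of at least 5, with a pseudocount of 2, with no filter and with the 65000 peaks of lowest p, and 2 with the same chromosome as denominator and with covered bases. In OCI-AML3 the 3 became 6 at a −log10 q of at least 5, 1 with a pseudocount of 2, 21 with covered bases and 0 with the 65000 peaks. Over the lines the 1 became 0 at a −log10 q of at least 5, with 5 kb flanks, the same chromosome, no filter and the 65000 peaks. Leaving out each library gave 1 to 14, 0 to 79 and 0 to 5 genes, respectively.

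The replicate numbers gave correlations of deviations within a line of −0.0422 to 0.0315 and did not pair the libraries. With the replicate block, 0 genes passed in OCI-AML3 and 0 over the lines, and no other call changed (RUNX1 in MV4-11 stayed at −0.3965).

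Between lines, the 768 genes of MOLM13 against MV4-11 became 2600 at a −log10 q of at least 5, 1573 with a pseudocount of 2, 4224 with covered bases and 355 with the 65000 peaks (291 to 946 leaving out a library). The 1893 of MOLM13 against OCI-AML3 became 4377 with covered bases (1292 to 1940). The 3230 of MV4-11 against OCI-AML3 became 2084 with 5 kb flanks, 6690 with covered bases and 1509 with the 65000 peaks (1870 to 3393). In strength, 787 regions became 1266 with log2 fold and 1647 became 1022 at a −log10 q of at least 5, and leaving out a library gave 278 to 835, 783 to 1566 and 1125 to 2774.

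Several log2 differences changed sign, and 2 of them passed under the alternative. At a −log10 q of at least 5 they were, for treatment, RUNX1 −0.1247 and RUNX2 0.6023 in MOLM13 and RUNX2 0.1197 and RUNX3 −0.1851 over the lines. At the same threshold between lines they were RUNX3 0.4363 (MOLM13 minus MV4-11), RUNX1 −0.024 and RUNX2 −0.07 (MOLM13 minus OCI-AML3) and RUNX2 −0.5149 (MV4-11 minus OCI-AML3, limma adjusted p = 0.0104). With covered bases they were RUNX2 0.0587 in MOLM13, RUNX3 −0.0917 in MV4-11, RUNX2 −0.0065 in OCI-AML3, RUNX3 −0.1107 and CBFB 0.0972 over the lines, CBFB 0.2021 (MOLM13 minus OCI-AML3), and RUNX2 −0.3173 (limma adjusted p = 0.0111) and CBFB 0.0578 (MV4-11 minus OCI-AML3). With the 65000 peaks they were RUNX2 0.1512 and CBFB 0.0129 in MOLM13, RUNX2 0.0093, RUNX3 −0.0383 and CBFB 0.0344 over the lines, RUNX3 0.1177 (MOLM13 minus MV4-11) and RUNX2 −0.0762 (MV4-11 minus OCI-AML3). With 5 kb flanks they were CBFB 0.2148 in MOLM13, RUNX3 −0.0721 and CBFB 0.1439 over the lines and RUNX2 −0.0035 (MV4-11 minus OCI-AML3), with the same chromosome CBFB 0.0421 in MOLM13, and with a pseudocount of 2 RUNX2 −0.0172 (MV4-11 minus OCI-AML3). Leaving out a library turned RUNX2 (−0.2354 to 0.1196), RUNX3 (−0.4627 to 0.1452) and CBFB (−0.3249 to 0.283) in MOLM13, RUNX2 in MV4-11 (−0.4703 to 0.0825), RUNX3 in OCI-AML3 (−0.1668 to 0.0508), RUNX2 (−0.0941 to 0.0902) and RUNX3 (−0.0789 to 0.1237) over the lines and RUNX2 between MV4-11 and OCI-AML3 (−0.0787 to 0.1977).

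Of the region counts, regions of MV4-11 alone went from 3 to 1 at a −log10 q of at least 5 and 5 with summit windows, and of MOLM13 alone from 0 to 1 with summit windows. At a −log10 q of at least 5, MOLM13 had 4 lost and 5 gained, MV4-11 0 gained, and OCI-AML3 2 lost and 1 gained, and with summit windows OCI-AML3 had 1 gained. The causes were not tested. Without read counts, a region missing from a list cannot be told apart from one just under the threshold of the peak caller.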
